A study of Mus musculus with 4 samples.

Results

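The genes described here encode the nuclear-coded subunits of the mitochondrial respiratory chain and of ATP synthase. They were taken by name, as every gene symbol in the deposited tables that begins with Nduf, Uqcr or Atp5, or with Cox followed by 4, 5, 6, 7 or 8, together with Sdha, Sdhb, Sdhc, Sdhd, Cyc1 and Cycs. This gave 84 of the 11754 listed symbols, 9 of which fit the spelling but encode no subunit. Tag counts were present for 82 of them, and 69 had enough counts to be tested. The expression data came from serial analysis of gene expression (SAGE) in alveolar macrophages, the phagocytes that live in the air spaces of the lung, from wild-type BALB/c mice. One group of mice was untreated. In the other, BNL cells, a mouse hepatocellular carcinoma line, had been given into a vein 21 days before, and the lungs carried metastases. There were 2 libraries in each group. The labels give no age and no sham injection, and they do not say if each library is a mouse of its own. The spread behind every p-value therefore comes from 2 libraries per group, is pooled in part over the genes tested, and may be purely technical.

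The respiratory chain lies in the inner mitochondrial membrane. Complex I takes electrons from NADH and complex II takes them from succinate. Complex III passes them to cytochrome c, and complex IV hands them to oxygen. Complexes I, III and IV pump protons, and ATP synthase, also called complex V, uses their return to make ATP. Alveolar macrophages live where oxygen is high, and they are known for a metabolism that draws on fatty acid oxidation and oxidative phosphorylation. Some subunits of complex IV exist as pairs of isoforms that differ between tissues. In subunit 6a, Cox6a1 is the form of most tissues and Cox6a2 the form known from heart and skeletal muscle.

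In SAGE the cDNA is cut by NlaIII at CATG, and the bases next to a cut site are read as a tag. By design that site is the last one before the 3′ end of the transcript. A tag is called a last-site tag here if it lies at the last CATG of at least 1 annotated transcript of its gene, short transcripts included, and an upstream tag if it lies at the last CATG of none. By this rule the most counted tag was a last-site tag for 65 members, against 55 by the transcript used for the positions given. The members held 265 listed tags, of which 197 had counts. The tags below are shown because the results rest on them. Capitals mark the NlaIII site, and the 21 bases of the tag follow in lower case. They are the deposited tags of both Cox6a2 sites, of its partner Cox6a1, of the most counted members other than Ndufa2 and of the paired sites of Atp5b and Ndufb9 (Ndufb9 was picked after its values were seen).
Cox6a2, upstream site: CATGgaggggcaggagccaacacct
Cox6a2, last site: CATGgtggaaggggctgggcaggct
Cox6a1, last site: CATGtgaacccacttccgaccggct
Uqcr10, upstream site: CATGtcgtcgccgacgatcccttcg
Uqcrc1, last site: CATGttctggctgcgcttctaggca
Ndufa3, last site: CATGcctgatgtgcccagccaccct
Atp5c1, last site: CATGgacaacgccagcaagaacgct
Atp5b, upstream site: CATGggcacaatgcaggaaaggatc
Atp5b, last site: CATGcaggccacacaagagccttga
Ndufb9, upstream site: CATGgtgtatccacagggacaagta
Ndufb9, last site: CATGcttgcaagtgagagtttcaga

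These tags were placed on GENCODE M21 transcripts (GRCm38). The upstream tag of Cox6a2 runs from exon 1 into exon 2 of 3, within the coding sequence, between positions 128206028 and 128206238 of chromosome 7 on the minus strand. The last-site tag of Cox6a2 lies in the 3′ UTR, in exon 3, at chr7:128205563-128205587. That of Cox6a1 is coding, in exon 3 of 3, at chr5:115345857-115345881. The single listed tag of Uqcr10 covers the start of the coding sequence in exon 1 of 2, at chr11:4704283-4704307. The paired tags of Atp5b lie on chromosome 10, the upstream one coding in exon 7 of 10 (chr10:128086360-128086384) and the last one in the 3′ UTR in exon 10 (chr10:128090187-128090211). The pair of Ndufb9 lies on chromosome 15, the upstream tag running from exon 1 into exon 2 of 4 in coding sequence, between positions 58933923 and 58936276, and the last one in the 3′ UTR in exon 4 (chr15:58939426-58939450). The Uqcrc1 tag covers the stop codon in exon 13 of 13 (chr9:108949478-108949502). The Ndufa3 tag is coding, in exon 4 of 4 (chr7:3620023-3620047), and the Atp5c1 tag is coding, in exon 7 of 10 of the transcript shown (chr2:10059502-10059526). Of the 82 members with counts, the most counted tag could be placed for 81 and lay in the 3′ UTR for 34, in coding sequence for 37, across the stop codon for 3 and across the start codon for 7. It matched transcripts of a single gene for 71 members.

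The libraries held 1783814 and 1630776 counts on day 21 (replicates 1 and 2) and 1962569 and 2198563 in the untreated mice. No tag was listed with 1 read in any library, so a listed 0 can hide a tag read once. Values below are counts, or CPM, counts scaled to 1e+06 per TMM-adjusted library. By design 1 transcript gives 1 tag, so CPM were not scaled for transcript length. Here 58 members had at least 2 counted tags. Gaps in CPM between genes therefore need not be gaps in transcript number. Of 17 alveolar macrophage markers 16 had counts, among them the abundant Cd9, Chi3l3 and Ear2. Fabp4 was listed at 0 and Marco had 2 counts in 1 untreated library. Among the 15 tested 0 were called, and 5 had an unadjusted p under 0.05 (edgeR), in both directions. Their log2 changes (day 21 minus untreated) were 1.33 for Chi3l3, 1.67 for Fabp5, -1.43 for 1600029D21Rik, -2.27 for Krt79 and -4.17 for Olr1. Markers of monocyte-derived and interstitial macrophages (11 of 15 with counts) summed to 2180 and 3310 CPM on day 21 and to 63.0 and 132 CPM in the untreated group, and 5 of the 8 tested were called higher. In bulk libraries fewer cells of a type and less RNA per cell cannot be told apart.

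Cox6a2, the subunit 6a isoform known from muscle, was the 1 member that passed the test between the groups. Its upstream tag had 27 and 13 counts on day 21 (15.3 and 9.20 CPM) and was listed at 0 in both untreated libraries. Its last-site tag was listed at 0 in all 4 libraries, so every Cox6a2 count came from a site other than the one SAGE is designed to read. The fitted log2 change was 7.57 ± 1.51 (SE), with an adjusted p of 0.0104 (edgeR quasi-likelihood test, Benjamini-Hochberg over 2979 genes). That size depends on the small count which the fit adds to zeros. A mean of 5.69 counts in an untreated library, spread evenly over the 2 listed tags, would leave both at 0 or 1 reads with a probability of 5%. The day 21 mean of Cox6a2 was 4.82-fold above that floor. This ratio leaves out the error of the day 21 mean, so it is not a lower limit of the change. The ratio was 3.62-fold without day 21 replicate 1, where Cox6a2 has too few counts to be tested. The gene did not pass without untreated replicate 1 (adjusted p = 0.205), with scaling by total counts (adjusted p = 0.136), with limma-voom (adjusted p = 0.570) or with 1 tag per gene (adjusted p = 0.0832). It passed the filter on low counts through the day 21 libraries alone.

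The partner Cox6a1, the form of most tissues, did not pass. It had 60 and 52 counts on day 21 and 49 and 131 in the untreated group, so the groups overlapped (log2 change -0.12 ± 0.68, adjusted p = 0.998, edgeR). Of the tags of the pair, Cox6a2 took 31.0% on day 21 in replicate 1 (exact Clopper-Pearson 95% interval 21.5% to 41.9%) and 20% in replicate 2 (11.1% to 31.8%). In the untreated libraries it took 0 of 49 and 0 of 131, which allows up to 7.25% and 2.78%. These intervals cover counting error only, because PCR copies were not told apart and single reads are not listed. As Cox6a2 was counted at an upstream site and 94.5% of Cox6a1 counts came from the last site, the percentages need not be isoform shares. The Cox6a2 tag matched no other gene, and the nearest other listed tag differed from it at 7 of its 21 bases. That nearest tag belongs to Rps6ka1, which had 2351 counts in that tag.

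The few listed markers of the tissues that Cox6a2 is known from were at or near 0, and markers that are not listed could not be assessed. Of 31 heart and skeletal muscle genes 7 were listed (Myl4, Tnnt2, Tnnt3, Tnni2, Des, Casq1 and Casq2), and 6 of these had no count. Tnni2, a troponin of fast muscle, had 2 counts, all in day 21 replicate 1. Of the markers of monocyte-derived and interstitial macrophages given above, 5 passed in the same direction as Cox6a2. C1qb and C1qc, chains of complement C1q, had 75 and 96 and 125 and 71 counts on day 21 and were likewise listed at 0 in the untreated group. Csf1r, the receptor of the macrophage growth factor CSF1, had 60 and 82 counts against 15 and 44 (log2 change 1.86 ± 0.73) and did not pass (adjusted p = 0.626, edgeR). Cd14, a co-receptor for lipopolysaccharide on the same list, was at 4.26 against 4.15 CPM (log2 change 0.07 ± 0.99). The part of a change in the mix of macrophages in the Cox6a2 result was not tested.

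**Figure D1:**
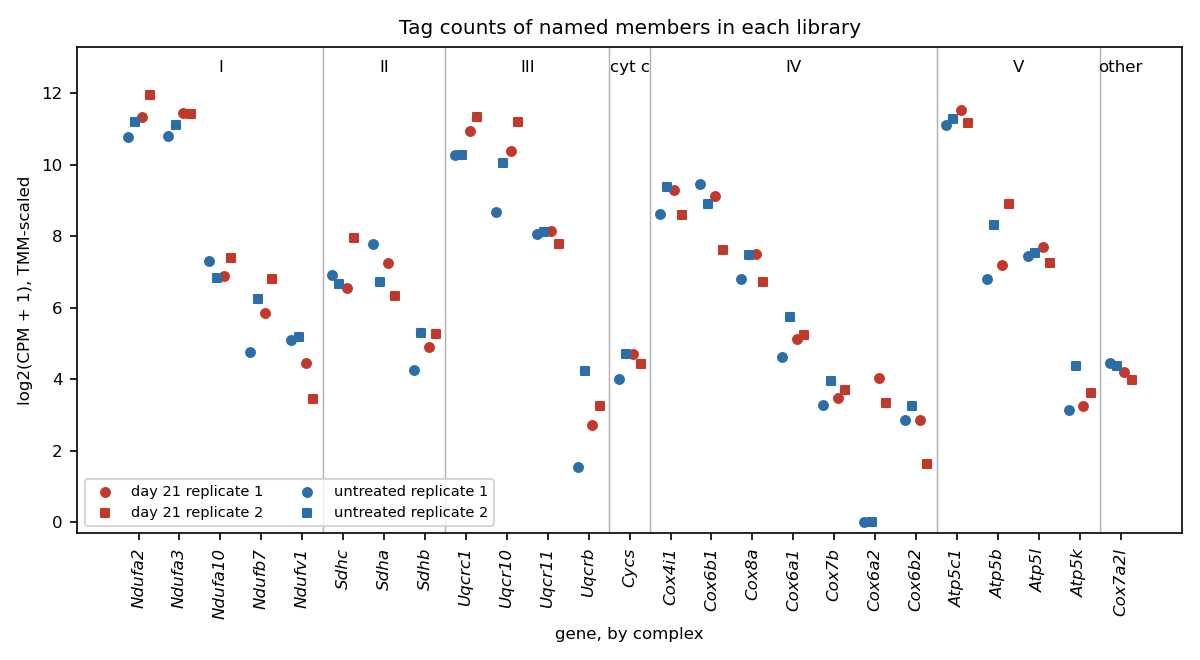
Level of each named member in the 4 libraries as log2(CPM + 1), grouped by complex, with untreated libraries in blue, day 21 libraries in red, and replicates 1 and 2 as circles and squares. Cox6a2 is at 0 in both untreated libraries and at 15.3 and 9.20 CPM on day 21, while Cox6a1 overlaps between the groups.

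Apart from Cox6a2 no member passed the test in either direction. This was 1 of 69 higher, where 0.671% of all 2979 genes were called higher, and 0 of 69 lower, where 0.0671% were. At an unadjusted p under 0.05 there were 2 members higher (Cox6a2 and Uqcr10) and 0 lower, against 3.52% and 2.11% of all genes (5.64% in either direction). No member was called lower with DESeq2, limma-voom or edgeR's likelihood ratio test. Of the 69 tested members 37 had a positive log2 change, against 45.6% of all genes, and their median was 0.04, against -0.07 for all genes tested. Groups did not overlap for 8 members with day 21 above and for 5 with untreated above, where 15.2% and 16% of all genes did so. In simulated counts of 2979 genes with independent libraries the test found 0% of the 50 genes with a 2-fold change, 26% of those with a 4-fold and 54% of those with an 8-fold change, so changes of modest size would be missed at this number of libraries.

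**Figure D2:**
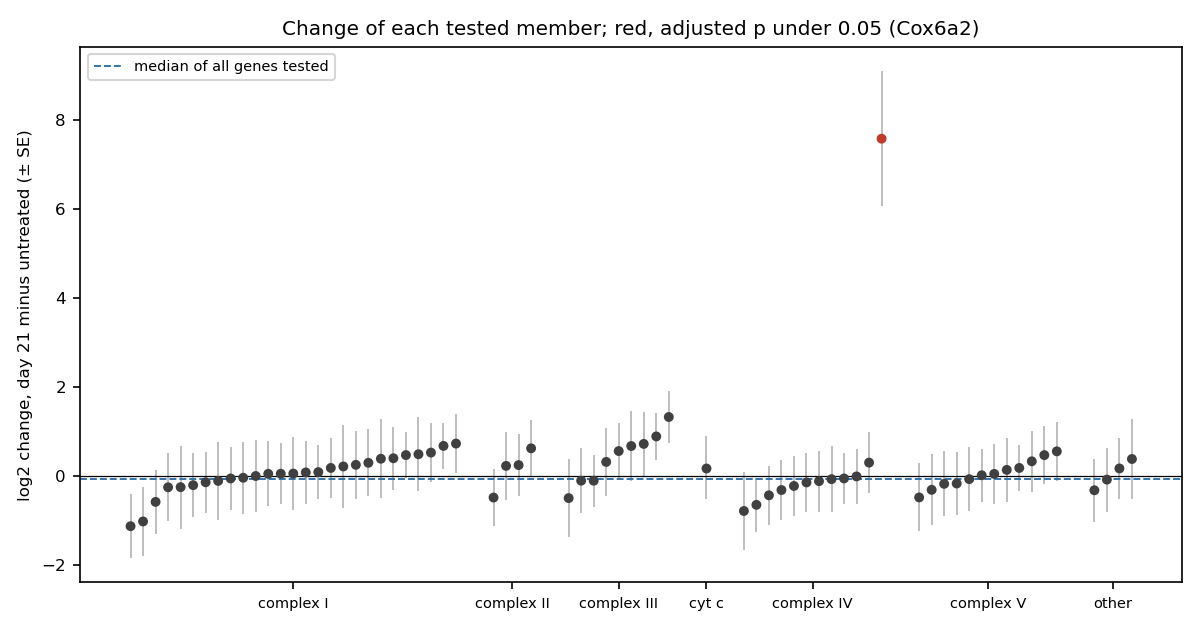
Log2 change (day 21 minus untreated, ± SE) of the 69 tested members, sorted within each complex, with the median of all genes tested as a dashed line. Cox6a2 (red) is at a fitted 7.57, a size that depends on the count added to zeros, and the other members lie between -1.14 and 1.32.

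Complex I, the NADH dehydrogenase, had 35 listed subunits, of which 27 were tested, 0 were called higher and 0 were called lower. Their median log2 change was 0.05 with 16 positive, and -0.18 with 9 positive when scaled by total counts. Ndufa2 and Ndufa3, both accessory subunits, stood far above the rest in tag level. Ndufa2 was at 2579 and 3973 CPM on day 21 and at 1755 and 2369 CPM in the untreated group. Ndufa3 was at 2809 and 2724 CPM on day 21 and at 1800 and 2219 CPM in the untreated group. In each of these genes both day 21 libraries were above both untreated ones, by less than the test could call (log2 change 0.67 ± 0.52 and 0.46 ± 0.51, adjusted p = 0.998 for each). The other 33 subunits had a median of 9.43 CPM and reached at most 139 CPM, in Ndufa10. Among the subunits with counts the mean tag level ran from 0.528 CPM (Ndufc2, read in 2 libraries) to 2669 CPM (Ndufa2). Ndufa10, an accessory subunit, was at 118 and 168 CPM on day 21 and at 157 and 113 CPM in the untreated group, where the groups overlapped.

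The largest negative change in complex I was that of Ndufv1, the core subunit that binds NADH. It had 37 and 14 counts on day 21 and 68 and 87 in the untreated group. Both day 21 libraries were below the untreated ones (21.0 and 9.91 against 33.2 and 35.3 CPM, log2 change -1.14 ± 0.72, adjusted p = 0.998). Ndufs4, an accessory subunit whose loss is a cause of Leigh syndrome, and Ndufv3, an accessory subunit next to Ndufv1, were also below untreated in both day 21 libraries and were picked out after their values were seen. Their counts were 13 and 7 against 29 and 28, and 22 and 17 against 35 and 49. The highest change was that of Ndufb7, an accessory subunit of the membrane arm, at 57.4 and 110 CPM on day 21 and 26.4 and 75.1 CPM in the untreated group, where the groups overlapped (log2 change 0.72 ± 0.67). With last-site tags alone its log2 change was -0.07.

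Complex II, succinate dehydrogenase, is also an enzyme of the citrate cycle and has 4 subunits, all of them tested and none called. Sdha, the flavoprotein, had 266 and 112 counts on day 21 and 452 and 256 in the untreated group. Sdhc, a membrane anchor of the complex, had 163 and 349 counts on day 21 and 248 in each untreated library. Sdhb, the iron-sulfur subunit, had 51 and 53 counts on day 21 and 37 and 94 in the untreated group. In all 3 genes the groups overlapped, with log2 changes of -0.49 ± 0.64, 0.61 ± 0.64 and 0.24 ± 0.70. Day 21 replicate 2 alone held the high Sdhc value (247 CPM, against 92.6 to 121 CPM in the other libraries), and without it the log2 change was -0.23.

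Complex III, cytochrome bc1, had the most positive median, 0.55 over 9 tested subunits, of which 6 were positive and 0 were called. Uqcr10, a small subunit, was at 1332 and 2336 CPM on day 21 and at 411 and 1060 CPM in the untreated group. Uqcrc1, a core subunit on the matrix side, was at 1991 and 2578 CPM on day 21 and at 1236 and 1245 CPM in the untreated group. Both genes were above untreated in each day 21 library. For Uqcr10 the log2 change was 1.32 ± 0.58 (unadjusted p = 0.0331, adjusted p = 0.739), and for Uqcrc1 it was 0.88 ± 0.53 (adjusted p = 0.998). Uqcr10 rests on an upstream tag alone, and over all settings its log2 change ran from 0.79 to 2.19. Uqcr11, another small subunit, had 498 and 312 counts on day 21 and 547 and 685 in the untreated group (log2 change -0.11 ± 0.59).

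The most negative change in complex III was that of Uqcrb, a subunit at the ubiquinone-binding site, which had 10 and 12 counts on day 21 and 4 and 44 in the untreated group. The day 21 values lay between the untreated ones, and the log2 change of -0.51 ± 0.87 was 1.84 without untreated replicate 2 and -1.33 without untreated replicate 1. Its main tag matched transcripts of 4 genes, so its counts are uncertain. Cycs, the mobile cytochrome c that carries electrons from complex III to complex IV, had 44 and 29 counts on day 21 and 31 and 62 in the untreated group. Its groups overlapped too (log2 change 0.17 ± 0.71), and its main tag also matched Gm10053.

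Complex IV, cytochrome c oxidase, was the complex with the fewest positive changes. Of its 12 tested members 10 were negative and 2 positive, Cox6a2 and Ndufa4, the latter named for complex I but counted here since it is now held to be a subunit of complex IV. The median was -0.14, which does not depend on how large the positive change of Cox6a2 is. None of the 10 negative members passed the test, and without untreated replicate 2 the same complex had 10 of 12 positive (median 0.32). Cox4i1, the main form of the largest nuclear-coded subunit, was at 631 and 384 CPM on day 21 and at 393 and 667 CPM in the untreated group. Cox6b1, which joins the monomers of the enzyme, was at 559 and 195 CPM on day 21 and at 708 and 482 CPM in the untreated group. Cox8a was at 180 and 105 CPM on day 21 and at 112 and 176 CPM in the untreated group. In each of these genes the groups overlapped and day 21 replicate 2 was the lowest library, for Cox4i1 and Cox8a by a small margin.

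Among the other isoforms of complex IV, Cox6b2, best known from testis, had 11 and 3 counts on day 21 and 13 and 21 in the untreated group. It made up 0.889% to 1.74% of the Cox6b tags in each library, and the log2 change was -0.80 ± 0.88. Cox7b had 18 and 17 counts on day 21 and 18 and 36 in the untreated group (log2 change -0.08 ± 0.74). Cox7a2l, which is related in sequence to subunit 7a and links complexes III and IV into supercomplexes, had 31 and 21 counts against 43 and 49 (log2 change -0.33 ± 0.71). Both day 21 libraries were below the untreated ones for Cox6b2 and Cox7a2l, although neither passed (adjusted p = 0.998). Cox4i2, Cox7a1, Cox7a2, Cox8b and Cox8c were not among the listed symbols.

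ATP synthase had 14 listed subunits, of which 12 were tested, 7 were positive and 0 were called, with a median of 0.02 (3 positive and -0.20 when scaled by total counts). Atp5c1, the gamma subunit that forms the rotating shaft, was at 2970 and 2312 CPM on day 21 and at 2209 and 2479 CPM in the untreated group. Its catalytic neighbour Atp5b, the beta subunit, was at 148 and 479 CPM on day 21 and at 111 and 318 CPM in the untreated group, and Atp5a1, the alpha subunit, at 44.9 and 79.3 against 23.4 and 75.5 CPM. Groups overlapped for each of these genes, with log2 changes of 0.17 ± 0.51 (Atp5c1), 0.55 ± 0.66 (Atp5b) and 0.32 ± 0.69 (Atp5a1). Atp5l, subunit g of the membrane part, had 368 and 213 counts on day 21 and 356 and 453 in the untreated group (log2 change 0.01 ± 0.60). Atp5k, subunit e, had the most negative change of the complex (log2 change -0.49 ± 0.76). Its counts were 15 and 16 against 16 and 49, so that untreated replicate 2 stood above the other libraries.

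As a share of all counts, the members took 1.517% and 1.496% on day 21 and 1.108% and 1.496% in the untreated group. The 5 most abundant members, Ndufa2, Atp5c1, Ndufa3, Uqcrc1 and Uqcr10, held 74.0% of all member counts. They took 1.15% and 1.21% of the libraries on day 21 and 0.774% and 1.05% in the untreated group. The other 79 members took 0.364% and 0.290% on day 21 against 0.335% and 0.447%, where the groups overlapped. The share of complex III was 0.373% and 0.461% on day 21 and 0.210% and 0.308% in the untreated group, a ratio of means of 1.61 (1.92 as a share of the counts other than those of Ctsd, a lysosomal protease). Without Uqcrc1 and Uqcr10 it was 0.0452% and 0.0350% against 0.0378% and 0.0499%. Complex IV, with none of the 5 members, took 0.164% and 0.0788% on day 21 and 0.149% and 0.190% in the untreated group, a ratio of 0.719 that was 0.971 without day 21 replicate 2 and 0.466 without day 21 replicate 1. Leaving out Ctsd raised the ratios of all 5 complexes, from 1.21 to 1.45 for complex I, from 0.905 to 1.08 for complex II, from 0.719 to 0.860 for complex IV and from 0.975 to 1.17 for ATP synthase, so that complex II and ATP synthase passed from below 1 to above it. With 2 libraries against 2 an exact two-sided permutation test cannot go below p = 0.333, so no p is given for these shares.

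**Figure D3:**
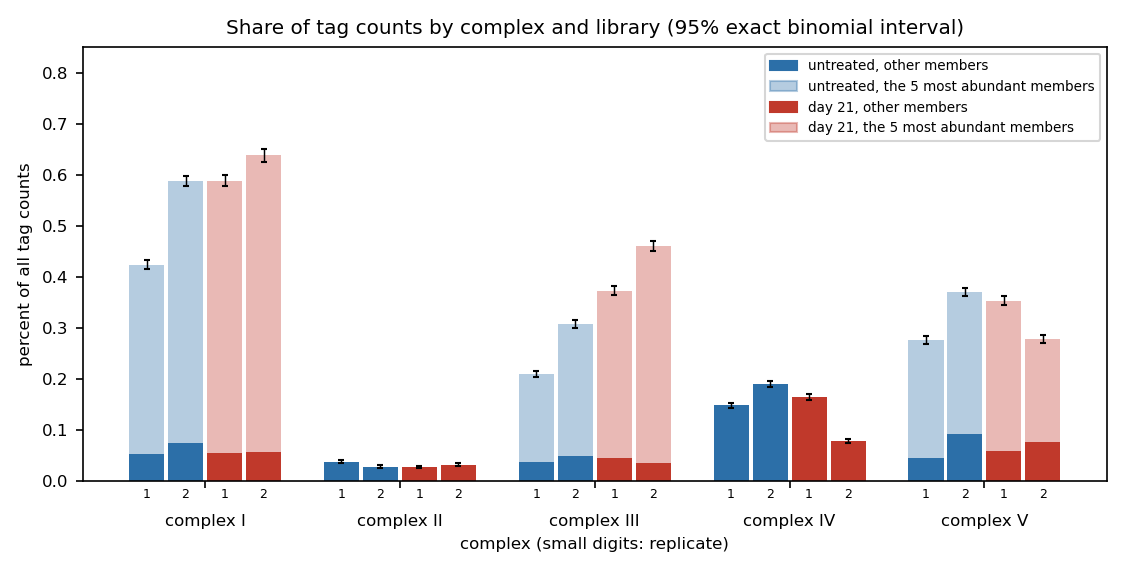
Percent of all tag counts held by each complex in each library, untreated in blue and day 21 in red, with the part of the 5 most abundant members in the paler shade and exact 95% binomial intervals of the whole bar (counting error only). Complex III is higher in both day 21 libraries through Uqcrc1 and Uqcr10, and complex IV is lowest in day 21 replicate 2 (0.0788%).

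The members stood apart between the untreated libraries. In 57 of 69 tested members untreated replicate 2 was above untreated replicate 1, with a median log2 difference of 0.65 (of CPM + 1). Over all genes tested this held for 1561 of 2979, with a median of 0.07. It was so for 22 of 27 tested subunits in complex I, 9 of 9 in complex III, 10 of 12 in complex IV and 12 of 12 in ATP synthase, but for 2 of 4 in complex II. Some genes from marker lists of other cells differed between the same libraries, though few genes carried the counts. Neutrophil genes (6 of 13 with counts) summed to 22 and 390 in untreated replicates 1 and 2, of which Camp held 19 and 343. The only red cell gene with counts, Hba-a1, had 67 and 365. On the T and NK cell list only 1 of the 7 genes found in the data, Cd2, had counts (129 and 317). Lung epithelium genes (4 of 14 with counts) summed to 342 and 851, although Epcam among them went the other way (109 and 66). On day 21 the counts were 133 and 393 (neutrophil), 41 and 87 (Hba-a1), 26 and 18 (Cd2), and 85 and 94 (epithelium). Of the epithelial genes Tppp3 was called lower on day 21 (log2 change -2.90 ± 0.70, adjusted p = 0.0475, edgeR). Whether these counts came from such cells, and the part of such cells in the member values, was not tested. On day 21 replicate 2 was above replicate 1 in 31 of 69 members (median -0.13). The direction of the comparison between groups followed the untreated library used. Without untreated replicate 2, 53 of 68 tested members had a positive log2 change (median 0.48, against 0.00 for all genes tested). Without untreated replicate 1, 19 of 70 did (median -0.28, against -0.01). For ATP synthase 12 of 12 members were positive in the first case and 2 of 12 in the second, and for complex IV 10 of 12 and 1 of 12. For complex III, 8 of 9 and 5 of 9 were positive. With total counts as the scale the member median was -0.20 and that of all genes -0.29, and 22 of 69 members were positive.

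Last-site and upstream tags differed between replicates in unlike ways, among members and among other genes. Upstream tags made up 12.64% and 19.85% of member counts on day 21 and 7.07% and 14.4% in the untreated group, so replicate 2 had the larger share in each group. Uqcr10 alone held most of these counts, and without it the shares were 4.35% and 7.32% on day 21 and 3.33% and 7.01% in the untreated group. For genes that are no members the share was 10.37% and 12.02% on day 21 and 8.907% and 13.24% in the untreated group. Of the 34 upstream member tags with at least 20 counts, 32 were higher in untreated replicate 2 than in replicate 1 (median log2 difference 1.16), and 24 were higher in day 21 replicate 2 (median 0.49). Of the 74 last-site tags 55 were higher in untreated replicate 2 (median 0.57) and 28 in day 21 replicate 2 (median -0.20). Tags of genes that are no members showed a split of the same direction. Of 2090 upstream tags 1457 were higher in untreated replicate 2 (median 0.60) and 1305 in day 21 replicate 2 (median 0.36), and the medians of their 2990 last-site tags were -0.04 and -0.20. These counts are descriptions, as tags of a gene share their transcript.

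Single genes with counts at both kinds of site showed the same split. The upstream tag of Atp5b had 137 and 432 counts on day 21 and 123 and 460 in the untreated group. Its last-site tag had 76 and 101 counts on day 21 and 67 and 154 in the untreated group. Replicate 2 was the higher library by both tags in each group, and by more at the coding tag. Ndufb9, an accessory subunit of complex I, had 73 and 109 upstream counts on day 21 and 31 and 152 in the untreated group, and 27 and 16 against 24 and 31 at the last site. In all, 24 members had at least 20 counts at each kind of site. The upstream share was higher in replicate 2 in 21 of them in the untreated group, in 19 on day 21 and in 18 in both groups. With last-site tags alone, an alternative chosen after seeing the data, 28 of 61 tested members were positive (median -0.03), and complex III had 2 of 6 positive (median -0.04). Complex IV had 9 of 11 negative under that setting. Cox6a2 and Uqcr10 have no counts at a last site, and the part of the tag position in their values was not tested.

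**Figure D4:**
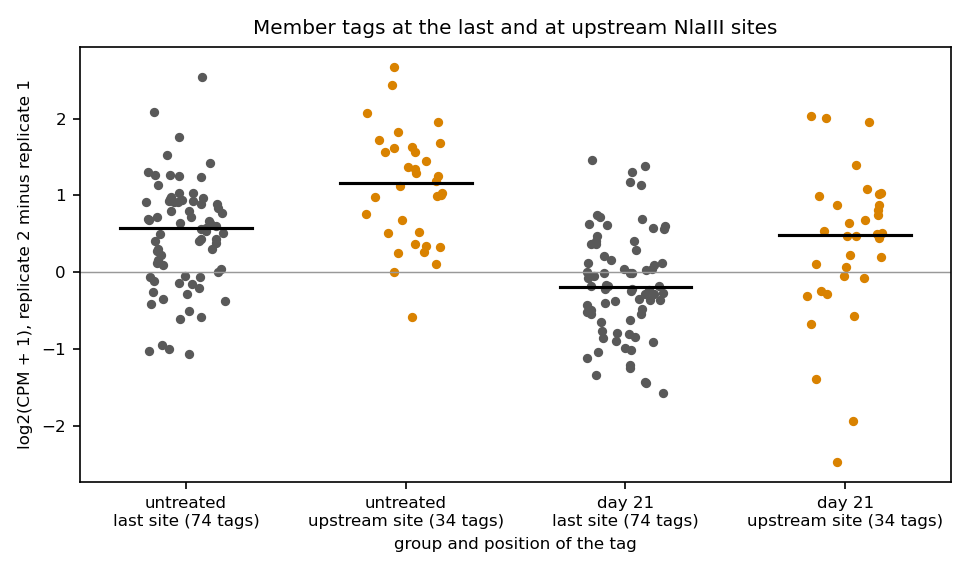
Difference of log2(CPM + 1) between replicate 2 and replicate 1 of each group for member tags with at least 20 counts, at the last site (grey, 74 tags) and at upstream sites (orange, 34 tags), with medians as black bars. Upstream tags have the higher median in both groups, 1.16 against 0.57 in the untreated group and 0.49 against -0.20 on day 21.

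Members outside the complexes and members below the filter completed the list. The 9 symbols that fit the spelling without encoding a subunit were Cox7a2l, the assembly factors of complex I Ndufaf1, Ndufaf2, Ndufaf3, Ndufaf4 and Atp5sl (now Dmac2), the homologue Ndufa4l2, Atp5s, and Cox4nb, a protein of the endoplasmic reticulum. Atp5sl had 54 and 37 counts on day 21 and 56 and 58 in the untreated group. Ndufaf3 was tested too, at 9 and 9 counts against 8 and 12, and was not called. Of the 15 untested members 13 had counts, at most 19 in any library, and Ndufa12 and Ndufa4l2 were listed at 0 throughout. Some untested members were picked out after their values were seen. Ndufa1 had 3 and 0 counts on day 21 against 10 and 7, and Ndufb2 had 3 and 2 against 7 and 17. The core subunit Ndufs1 had 0 and 0 against 4 and 2. Each was below untreated in both day 21 libraries, while Ndufa9 was above in CPM. All were too low for a test.

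Other genes of the pathway were taken from lists of mitochondrial functions. None of their tested genes passed in either direction, and none had an unadjusted p under 0.05. DESeq2, limma-voom and the likelihood ratio test called none of them either. Of 46 further assembly factors and membrane partners 34 had counts and 9 were tested, with a median log2 change of -0.18. The most counted were Cox14, deposited as 2310016M24Rik (311 against 140 CPM, log2 change 1.15 ± 0.60), and Cox19 (98.98 against 111.9 CPM), both needed to build complex IV. Of 11 carriers and porins 8 were tested, with Slc25a5, an ADP/ATP carrier, at 281 CPM on day 21 and 209 CPM in the untreated group, and Ucp2, an uncoupling protein homologue, at 528 and 577 CPM. Of 25 genes of protein import and cristae 13 were tested, led by Timm13, an import chaperone, at 705 and 558 CPM and Phb2, a prohibitin, at 60.3 and 41.1 CPM. Of 18 regulators of mitochondrial biogenesis 10 had counts and 2 were tested, Nrf1 (6.03 against 5.93 CPM) and Peo1, the mitochondrial helicase Twinkle (6.24 against 8.58 CPM). For genes of the mitochondrial genome 26 names were searched, and 0 were among the listed symbols.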

How the data were processed

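Tag counts came from 4 SAGE libraries, 2 per group. Each deposited table pairs 21-base tags and gene symbols with raw counts, per the file headers. The submitters' processing notes name the build mm9. For the matching tool, and for the filter that left no count of 1, nothing is given in the sources used here. Counts of all tags of a deposited symbol were summed. Sites and coordinates come from a search for CATG plus the tag in transcripts of GENCODE M21 (GRCm38).

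The quasi-likelihood test of edgeR 4.0.16 (R 4.3.3) compared the groups, with TMM scaling, filterByExpr (minimum count 10, minimum total 15), Benjamini-Hochberg adjustment over the 2979 genes left and a threshold of 0.05. Group was the only term, with 2 residual degrees of freedom per gene and a biological coefficient of variation of 0.482. The test moderates the spread of each gene with that of the other genes tested. Its p-values thus rest on more than the 2 degrees of freedom of a gene. Log2 changes are day 21 minus untreated, and the SE is the change over the square root of F. The test was tried on simulated counts. Alternatives were other scalings, no filter, DESeq2 1.42.0, edgeR's likelihood ratio test, limma-voom (limma 3.58.1), a robust prior, a replicate block, other tag sets, shares of the counts without Ctsd, and leaving out each library. Totals of 1630776 to 2198563 counts set the counting error.

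The members, lists and tests were chosen with earlier results of these data known. Members named in full were those called, the 3 most abundant of each complex, cytochrome c, the listed complex IV isoforms, the most positive and most negative of each complex and those with an unadjusted p under 0.05. Of the other lists the 2 most abundant genes were named. Of the marker lists not described with the results, that of B cells had no count and that of endothelium and fibroblasts 0 to 4 counts a library. The hepatocyte list gave 57497 to 84369 counts, nearly all in Trf. Trf was at 40600 and 40690 CPM on day 21 and at 41180 and 26390 CPM in the untreated group. The groups overlapped, so Trf does not mark the injected cells here.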

Additional observations from a re-analysis of the deposited data

How the results depend on the processing

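The count of members called higher, 1 in the values given above, was 0 with scaling by total counts, with limma-voom, with the most counted tag only and with last-site tags only, and it was 0 to 1 when each library was left out in turn. The counted Cox6a2 tag is not a last-site tag, so that setting has no Cox6a2 counts. Members called lower and other pathway genes called were 0 under every setting run. The adjusted p of Cox6a2 ran from 2.34e-05 (edgeR's likelihood ratio test) to 0.570 (limma-voom). Over the named members, 379 log2 changes under another setting had the same direction and the same side of the threshold, 4 lost the call and 35 changed sign. No member that changed sign was called, and the cause was not tested. With total counts the log2 change was -0.0423 for Atp5c1, -0.20 for Atp5l, -0.0522 for Cycs, -0.15 for Ndufa10 and -0.0143 for Sdhb. With last-site tags only it was -0.16 for Atp5l, 0.049 for Cox8a, -0.067 for Ndufb7 and -0.26 for Sdhb. With the most counted tag only it was -0.25 for Atp5l, with limma-voom -0.0063 for Atp5l and 0.0267 for Uqcrb, and for Cox8a it was 0.0332 with upper-quartile scaling and 0.0024 with no filter. Leaving out each library in turn gave -0.50 to 1.52 for Atp5b, -1.003 to 0.36 for Atp5k, -0.19 to 0.26 for Atp5l, -0.41 to 0.39 for Cox4i1, -0.58 to 0.59 for Cox6a1, -0.39 to 0.36 for Cox7b, -0.41 to 0.37 for Cox8a and -0.14 to 0.61 for Cycs. It gave -0.16 to 0.36 for Ndufa10, -0.98 to 0.15 for Sdha, -0.20 to 0.90 for Sdhb, -0.23 to 1.21 for Sdhc, -0.25 to 0.0874 for Uqcr11 and -1.33 to 1.84 for Uqcrb. With 1 library left in a group, that library is assumed to vary like those of the other group. With a replicate block the count of members called higher was 1, the adjusted p of Cox6a2 was 0.0323 and the log2 change of Atp5l was -0.0095. Same-numbered libraries deviated together (correlation 0.539 over genes tested), but with 2 pairs the numbers are not taken to pair the samples. Over all genes, calls higher and lower were 20 and 2, against 9 and 0 with total counts, 36 and 5 with no filter, 34 and 7 with the likelihood ratio test, 9 and 3 with limma-voom, 28 and 9 with the block, 11 and 0 with tags of 1 gene only, 9 and 0 with the most counted tag, 8 and 0 with last-site tags, and 63 and 18 without untreated replicate 2. Total counts moved the median of all genes tested from -0.07 to -0.29. Cox6a2 could not be tested with last-site tags or without day 21 replicate 1.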

Other observations

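The main tags of 10 members matched transcripts of more than 1 gene, most of the other genes being ones known by a Gm number. They were Atp5f1, Atp5l, Cox5b, Cox7c, Cycs, Ndufab1, Ndufb8, Ndufs6, Uqcrb and Uqcrh, and their counts are uncertain for that reason. With tags that matched 1 gene only, 59 members were tested and 33 were positive, with a median log2 change of 0.025.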
